A study of Mus musculus with 6 samples.

Results

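The S100 genes described here are 10 members of the S100 family of small calcium-binding proteins, S100a1, S100a3, S100a4, S100a6, S100a8, S100a9, S100a10, S100a11, S100a13 and S100a16, out of 24421 genes in the count table and 17 S100 genes listed there. The members were chosen by their read counts scaled to the library total (CPM, reads per 1000000) in all 6 libraries and by their ratios in the 3 comparisons of the study, so those levels and ratios are given as a description, with no test. The study asked what the histone H3 lysine methyltransferase gene Dot1l does in blood endothelial cells (BECs) and lymphatic endothelial cells (LECs) of the mouse. One comparison set Tie2-Cre(+); Dot1l 2f/2f embryos (cKO) against Tie2-Cre(-); Dot1l 2f/2f littermates (Cont), in BECs sorted at E15.5 from skin as F4/80-, CD45-, Lyve1- and CD31+ cells, with the RNA of 2 to 3 embryos in each library. The floxed alleles were present in both groups, and Tie2-Cre is active in blood cells as well as in endothelium. The other comparisons used cultured cells, namely the yolk sac BEC line CRL-2581 and the embryonic dermal LEC line C57-6064L, in which lentivirus carried dCas9-VP64 and guides to the Dot1l promoter (OE-BECs, OE-LECs) or was empty (Cont), with GFP-sorted cells of 2 to 3 flasks in each library. Each of the 6 groups was 1 library, so every ratio is a difference between 2 libraries and not a test of a condition.

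S100 proteins carry a pair of EF-hand loops, mostly work as dimers, and expose a binding face for partner proteins when calcium enters the cell. Inside the cell the family regulates annexins, myosin and other cytoskeletal or membrane proteins, and some members are released and act on receptors such as RAGE (Ager) and TLR4. In endothelium the family is best known for S100A10, which forms a complex with annexin A2 and gathers plasminogen and its activator at the cell surface, and for S100A8 and S100A9, which come from neutrophils and act on the vessel wall during inflammation.

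All 10 members lay on chromosome 3 (mm10). A block of 185 kb held 8 of them together with the neighbouring S100a2, S100a5, S100a7a and S100a14, and S100a11 and S100a10 lay 2.82 Mb further on, within 44.2 kb. S100a1 (chr3:90511034-90514392, minus strand) and S100a13 (chr3:90514435-90524581, plus strand) were annotated head to head with 42 bases between them. S100a4 (chr3:90603771-90606045), S100a5 (chr3:90608523-90611780) and S100a6 (chr3:90612882-90624181) followed each other on the plus strand, with 2.48 kb and 1.1 kb between them. RefSeq (GRCm38.p6, the same build) gave 13 start-site windows for 9 of the 10 members, and the bases upstream of the annotated gene are printed for S100a4, S100a6 and S100a11, the members with the widest range of level over the 6 libraries. Each is written 5′ to 3′ on the plus strand, and the capitals mark the motif matches found on either strand.
S100a4, chr3:90603520-90603769, plus strand: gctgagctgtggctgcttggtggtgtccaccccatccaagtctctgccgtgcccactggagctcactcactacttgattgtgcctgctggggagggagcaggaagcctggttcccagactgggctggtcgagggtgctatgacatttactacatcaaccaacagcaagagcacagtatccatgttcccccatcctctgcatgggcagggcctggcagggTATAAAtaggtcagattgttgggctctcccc
S100a6, chr3:90612644-90612881, plus strand: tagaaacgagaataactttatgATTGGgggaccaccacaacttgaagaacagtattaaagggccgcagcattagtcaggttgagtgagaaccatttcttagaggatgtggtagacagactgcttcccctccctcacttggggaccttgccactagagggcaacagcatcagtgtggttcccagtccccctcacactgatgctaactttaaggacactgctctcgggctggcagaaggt
S100a11, chr3:93520246-93520487, plus strand: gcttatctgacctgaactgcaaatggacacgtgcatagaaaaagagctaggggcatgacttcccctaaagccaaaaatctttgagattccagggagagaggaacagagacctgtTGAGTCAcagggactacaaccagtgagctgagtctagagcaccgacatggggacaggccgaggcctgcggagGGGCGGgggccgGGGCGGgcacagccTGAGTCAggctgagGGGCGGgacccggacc

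In S100a4 the capitals mark the TATA box letters TATAAA, 31 to 26 bases before the RefSeq start. These letters stood in 12.4% of 32851 RefSeq windows of the same kind and in the windows of 3 members, S100a3, S100a4 and S100a8. In S100a6 they mark the CCAAT box on the minus strand, 228 bases before the start, a motif held by 33.8% of windows. In S100a11 they mark 2 matches to the AP-1 letters TGANTCA, 136 and 38 bases before the start, and 3 matches to the Sp1 letters GGGCGG, which do not overlap them. AP-1 letters stood in 6.75% of all windows and, among the members, in those of S100a11 and S100a16, and Sp1 letters in 32.7%. The ETS letters CCGGAA stood in 12.0% of windows and in none of the 13 member windows. The TEAD letters GGAATG stood in 12.6% of windows and in 1 member window, and the interferon-response letters GAAANNGAA in 7.13% and in 3 member windows, those of S100a1, S100a3 and S100a16. Each match is a description of letters only.

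Total counts ran from 8863349 to 11084686 reads in the skin libraries and from 13933651 to 31032461 in the cultured ones, and 3 reads, taken as the floor, equalled 0.0967 to 0.338 CPM. Dot1l itself had 762 reads in skin Cont and 944 reads in skin cKO (log2 ratio -0.07, 95% counting interval -0.21 to 0.07). Its gene count thus did not set apart the library labelled cKO, which is called skin cKO for short. A count over the whole gene does not separate a deleted floxed part, and the paper checked the knockout by RT-qPCR. Dot1l was 2.78-fold higher in OE-BECs (1972 and 4208 reads) and 2.30-fold higher in OE-LECs (2490 and 6720 reads). All 12 markers of blood endothelium were above the floor in every library, whereas Prox1, the defining lymphatic gene, had no read in the 4 cultured libraries, LECs included, and had 1304 and 883 reads in the skin BECs. Lyve1, which the skin sort selected against, had 9105 and 19959 reads there. Lymphatic markers summed to 1953 and 2424 CPM in skin Cont and cKO, with 2 higher and 3 lower in cKO among those above the floor. They summed to 748 and 1160 CPM in cultured Cont BECs and OE-BECs, and to 2105 and 2093 CPM in Cont LECs and OE-LECs. Lyve1 led each of these sums. Summed macrophage markers stood at 4001 CPM in Cont and 6275 CPM in cKO skin cells despite the sort, and at 34.3 to 94.7 CPM in culture, where Adgre1, C1qa, C1qb, C1qc and Cd163 were at 0. Rn45s, the ribosomal RNA precursor, took 5.91% of the reads in cultured Cont BECs and 10.9% in OE-BECs, and at most 0.57% elsewhere.

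The summed level of the members set the skin cells apart from the cultured cells, but not every member did. S100a10, for one, had 234 and 207 CPM in the skin, within its range of 119 to 316 CPM in culture. Divided by merged exon length, the level of the 10 genes summed to 361 and 321 CPM per kb in the skin Cont and cKO libraries, 675 and 1315 in cultured Cont BECs and OE-BECs, and 1914 and 2411 in Cont LECs and OE-LECs. S100a10 led in the skin, with 53.4% and 53.0% of the summed level per length. In cultured Cont BECs S100a11 (34.4%) and S100a6 (33.9%) held nearly equal shares, S100a6 led in OE-BECs with 41.3%, and it led in Cont LECs and OE-LECs with 49.0% and 48.1%. The share of S100a4 was 0.674% to 4.18% in 5 libraries and 10.6% in OE-LECs. In bulk RNA fewer cells of a type and less RNA per cell cannot be told apart.

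**Figure D1:**
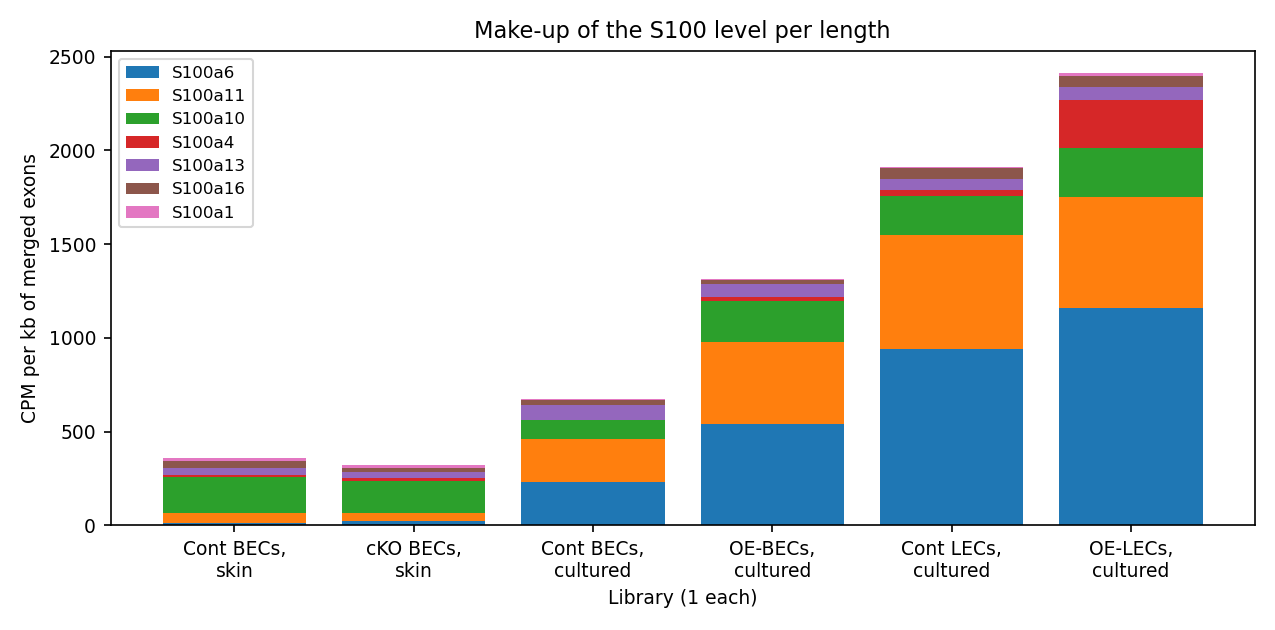
Stacked bars of the level per length (CPM per kb of merged exons, y axis) of 7 S100 genes in the 6 libraries (x axis, 1 library each). S100a10 makes up the largest part of the skin bars and S100a6 of the LEC bars, and S100a4 is widest in OE-LECs.

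**Figure D2:**
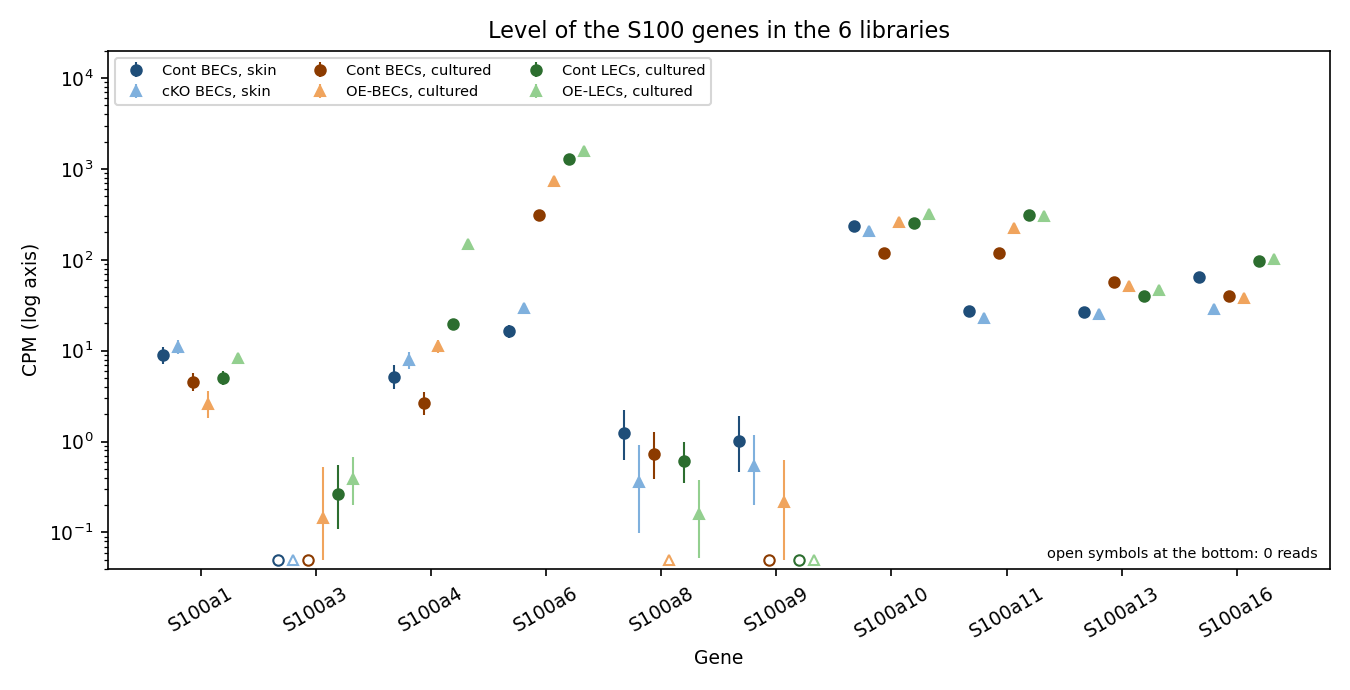
Level of each S100 gene (x axis) in CPM on a log axis (y axis), with 1 symbol for each of the 6 libraries and bars for the exact 95% counting interval. Open symbols at the bottom edge mark libraries with 0 reads. S100a6 ranges from 16.4 to 1585 CPM, while S100a13 stays between 25.4 and 56.4 CPM.

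S100a4, also called metastasin or FSP1, binds non-muscle myosin IIA and is linked to cell motility. It had 5.19 CPM in skin Cont BECs, 7.85 in skin cKO BECs, 2.66 and 11.2 in cultured Cont BECs and OE-BECs, and 19.5 and 150 in Cont LECs and OE-LECs. The highest library thus stood 56.4-fold above the lowest, and each neighbouring pair in this order of 6 libraries was separated by more than its counting interval. In OE-LECs the normalized count went from 550 in Cont to 4291, a 7.80-fold difference with a log2 ratio of 2.96 (2.83 to 3.10). That placed S100a4 at rank 7 from the top of 10503 genes with at least 100 normalized counts. In OE-BECs it was 4.33-fold higher than in Cont (41.2 and 178 normalized counts, log2 ratio 2.11, 1.63 to 2.62), at rank 16 of 9867 genes. The markers of blood endothelium moved in these pairs too, from 9032 CPM in Cont to 5676 in OE-BECs with 12 of 12 lower (Flt1 and Cldn5 called down) and from 7451 to 6502 in OE-LECs with 11 of 12 lower, and their part in the values of S100a4 and the other members was not tested. In the skin the count was 46 reads in Cont and 87 in cKO, a log2 ratio of 0.54 with an interval (0.01 to 1.09) that only just left out 0. Of the 584 exon bases annotated for S100a4, 302 are shared with the same-strand model Gm42674, which is not listed in the count table.

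S100a6, or calcyclin, binds annexin A11 and the calcyclin-binding protein and is abundant in proliferating cells. Its level was 16.4 CPM in skin Cont, 29.5 in skin cKO, 313 and 743 in cultured Cont BECs and OE-BECs, and 1282 and 1585 in Cont LECs and OE-LECs. The order of the libraries was skin, cultured BECs and then LECs, with the changed library above its Cont in each pair, and all 5 neighbouring pairs were separated by counting error. The log2 ratio was 0.80 (0.51 to 1.09) in the library labelled cKO, 1.29 (1.24 to 1.33) in OE-BECs, and 0.32 (0.30 to 0.34) in OE-LECs. The OE-BEC difference was 2.44-fold, from 4843 to 11814 normalized counts, at rank 92 of 9867 genes. Summed keratinocyte markers moved in the skin pair as well, from 248 CPM in Cont to 418 in cKO with 8 of 10 markers higher. So did those of macrophages, from 4001 to 6275 CPM with 9 of 10 higher. Markers of blood endothelium and fibroblasts were mostly lower (11 of 12 and 5 of 6). The part of these cell types in the S100a6 value was not tested. Between control libraries S100a6 stood 19.1-fold higher in cultured than in skin BECs.

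S100a10 does not need calcium for its binding and forms a heterotetramer with annexin A2. It had 234 and 207 CPM in the skin Cont and cKO libraries, 119 and 264 in cultured Cont BECs and OE-BECs, and 255 and 316 in Cont LECs and OE-LECs. Its whole range was 2.65-fold, against 96.9-fold for S100a6. The low library was that of cultured Cont BECs, and the OE-BEC level did not differ from that of Cont LECs beyond counting error. S100a10 was 2.27-fold higher in OE-BECs (log2 ratio 1.18, 1.11 to 1.26, rank 112), 1.26-fold higher in OE-LECs (0.33, 0.28 to 0.37) and 1.17-fold lower in the library labelled cKO (-0.23, -0.32 to -0.15).

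S100a11, a partner of annexin A1, is involved in membrane repair. Its CPM was 27.4 in skin Cont and 23.0 in skin cKO, 119 in cultured Cont BECs and 222 in OE-BECs, and 311 in Cont LECs and 303 in OE-LECs. Both LEC libraries were high and both skin libraries low, and neither of these pairs was separated in the order of CPM by counting error. The log2 ratio was 0.94 (0.86 to 1.02) in OE-BECs, a 1.92-fold difference from 1837 to 3533 normalized counts. It was -0.31 (-0.57 to -0.05) in the skin and -0.02 (-0.06 to 0.03) in OE-LECs.

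S100a16 is a broadly expressed member, and S100a13 takes part in the release of FGF1 and interleukin 1 alpha from cells. S100a16 had 64.3 CPM in skin Cont, 29.0 in skin cKO, 39.9 and 38.2 in cultured Cont BECs and OE-BECs, and 97.6 and 102 in Cont LECs and OE-LECs. The skin cKO library was the lowest of the 6. It was 2.31-fold below its Cont, from 650 to 282 normalized counts (log2 ratio -1.21, -1.41 to -1.01), at rank 140 from the bottom of 10212 genes. Summed markers of blood endothelium stood at 6820 CPM in Cont and 4330 CPM in cKO in that pair, with 11 of 12 lower. Those of fibroblasts stood at 2510 and 1849 CPM with 5 of 6 lower. In contrast, 9 of 10 macrophage and 8 of 10 keratinocyte markers were higher. The part of these cell types in the S100a16 value was not tested. In culture the log2 ratio of S100a16 was -0.03 (-0.19 to 0.14) in OE-BECs and 0.08 (0.00 to 0.15) in OE-LECs. S100a13 ran from 25.4 CPM in skin cKO and 26.6 in skin Cont through 40.1 in Cont LECs, 46.9 in OE-LECs and 51.4 in OE-BECs to 56.4 in cultured Cont BECs. This 2.22-fold range was the narrowest among the 7 members that had over 20 normalized counts in at least 1 library of every comparison. The 3 log2 ratios of S100a13 were -0.12 (-0.38 to 0.13), -0.10 (-0.24 to 0.04) and 0.25 (0.13 to 0.36) in the skin, OE-BECs and OE-LECs.

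S100a1 regulates calcium release channels and pumps of muscle and is also made in endothelium. It had 8.91 CPM in skin Cont, 11 in skin cKO, 4.52 and 2.58 in cultured Cont BECs and OE-BECs, and 4.98 and 8.25 in Cont LECs and OE-LECs. The OE library was the lower one in BECs and the higher one in LECs. The log2 ratio was -0.77 (-1.38 to -0.18; 80 and 36 reads) in OE-BECs, 0.75 (0.44 to 1.06; 130 and 256 reads) in OE-LECs and 0.25 (-0.17 to 0.68) in the skin.

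The remaining 3 members were near the floor. S100a8 and S100a9 form calprotectin, the main calcium-binding protein of neutrophils. S100a8 had 11 and 4 reads in skin Cont and cKO, 13 and 0 in cultured Cont BECs and OE-BECs, and 16 and 5 in Cont LECs and OE-LECs. Each changed library was below its Cont, by 3.57-fold in the skin (log2 ratio -1.84, -3.94 to -0.08), by at least 3.32-fold against the 3-read floor in OE-BECs (upper end of the interval -1.22) and by 3.76-fold in OE-LECs (-1.91, -3.71 to -0.39). S100a9 had 9 and 6 reads in the skin pair, 0 and 3 in the BEC pair and 0 in both LEC libraries, where the floor of 3 reads equals 0.115 and 0.0967 CPM. Markers of neutrophils went in both directions in the skin pair, with 6 higher and 3 lower among 9 above the floor. Mpo had 26 and 4 reads and was called down. Mmp9 was lower (71 and 32 reads, -1.53, -2.18 to -0.91) but was not called. Csf3r (30 and 117 reads), Camp (2 and 11) and Mmp8 (1 and 7) were called up. The intervals of Camp (-0.11 to 5.3) and Mmp8 (-0.53 to 7.92) held 0. The neutrophil markers summed to 19.9 and 20.3 CPM in the skin pair, 163 and 68.5 in the BEC pair and 68.8 and 40.5 in the LEC pair. Lcn2 gave most of that sum in culture (139, 63.1, 55.2 and 32.7 CPM), while Mpo and Mmp8 had no read in any of the 4 cultured libraries, and the part of neutrophil RNA in the S100a8 values was not tested. S100a3, a protein of the hair cuticle, had no read in the skin pair or in cultured Cont BECs, 2 reads in OE-BECs, and 7 and 12 in Cont LECs and OE-LECs, with a log2 ratio of 0.55 (-0.92 to 2.13).

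The control libraries of the 2 cultured cell types also differed. Cont LECs stood above cultured Cont BECs by 7.32-fold in S100a4 (log2 ratio of CPM 2.87, 2.44 to 3.34), 4.10-fold in S100a6, 2.62-fold in S100a11, 2.44-fold in S100a16 and 2.14-fold in S100a10. S100a13 went the other way, 1.41-fold lower in LECs (-0.49, -0.62 to -0.37), and S100a1 was not separated (0.14, -0.27 to 0.56). Against skin Cont BECs, cultured Cont BECs were higher in S100a6, in S100a11 (4.33-fold) and in S100a13 (2.12-fold), and lower in S100a1 (1.97-fold), S100a10 (1.96-fold), S100a4 (1.95-fold) and S100a16 (1.61-fold). Cell source, age and growth in culture cannot be told apart in these contrasts.

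The rule of the study's methods calls genes whose larger normalized count exceeds 3 times the smaller and reaches a minimum, which was 5 for the skin and 3 for the cultured cells. In the skin the rule called 0 of 9 tested members up, where it called 5.17% of 15993 genes, and 1 down (S100a8), where it called 2.41%. In OE-BECs it called 2 of 9 up (S100a4 and S100a9), against 8.02% of 14792 genes, and 1 down (S100a8), against 5.27%. In OE-LECs it called 1 of 9 up (S100a4), against 2.77% of 13883 genes, and 1 down (S100a8), against 2.09%. Of these calls, those of S100a8 and S100a9 rested on at most 16 reads.

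A rule chosen after the values were seen, more than 2-fold with a minimum of 20 normalized counts, left 7 tested members in each comparison. In the skin it called 0 up, against 6.67% of 13638 genes, and 1 down (S100a16), against 3.25%. In OE-BECs it called 3 up (S100a4, S100a6 and S100a10), against 4.33% of 11974 genes, and 0 down, against 5.59%. In OE-LECs it called 1 up (S100a4), against 2.26% of 11858 genes, and 0 down, against 1.56%. The members were picked on these contrasts, so nothing is read from their counts beside these shares. The median log2 ratio of the members above the floor was -0.23 in the skin (3 higher, 6 lower), 0.46 in OE-BECs (4 higher, 4 lower) and 0.32 in OE-LECs (7 higher, 2 lower), beside 0.01, -0.00 and 0.01 for all genes. Over members with at least 20 normalized counts the medians were -0.12, 0.94 and 0.32.

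**Figure D3:**
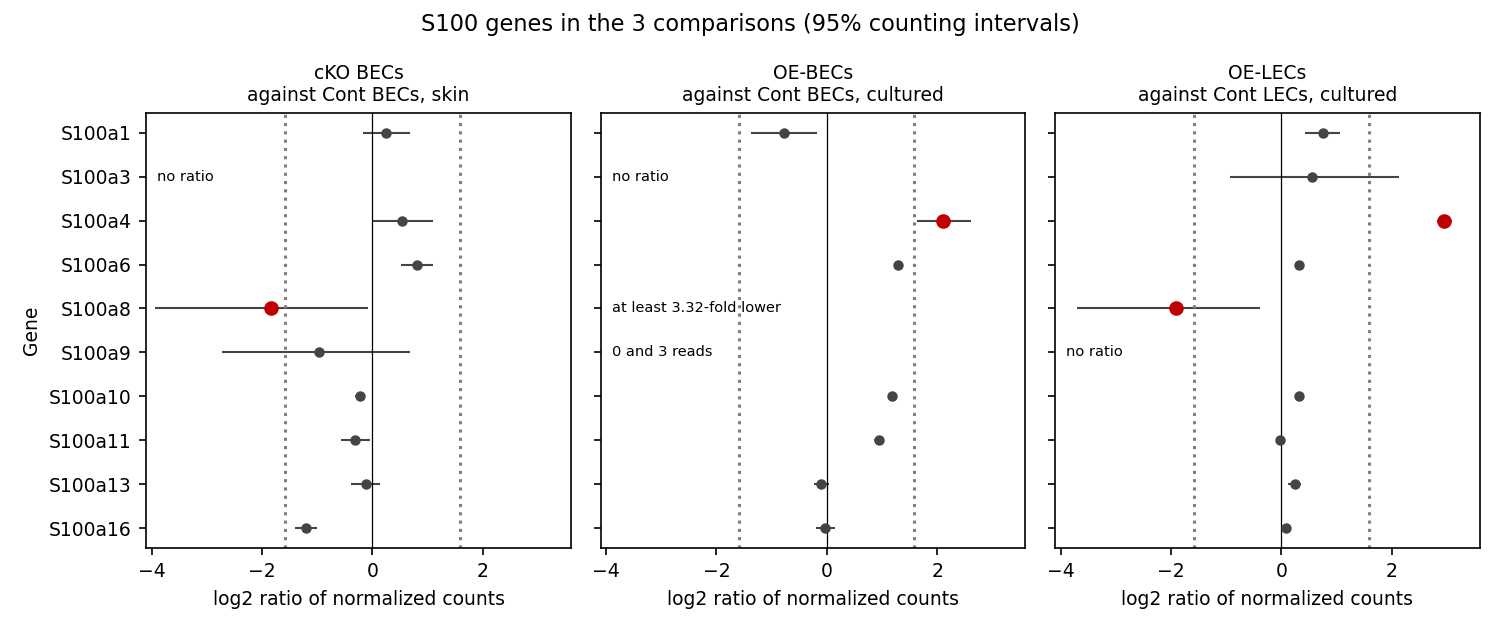
Log2 ratio of normalized counts (x axis) of each S100 gene (y axis) in the 3 comparisons, 1 library against 1 library, with exact 95% counting intervals. Dotted lines mark a 3-fold difference and red points the genes called by the rule that have a ratio. S100a4 lies beyond the line in both OE comparisons and S100a8 in the skin and OE-LECs.

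**Figure D4:**
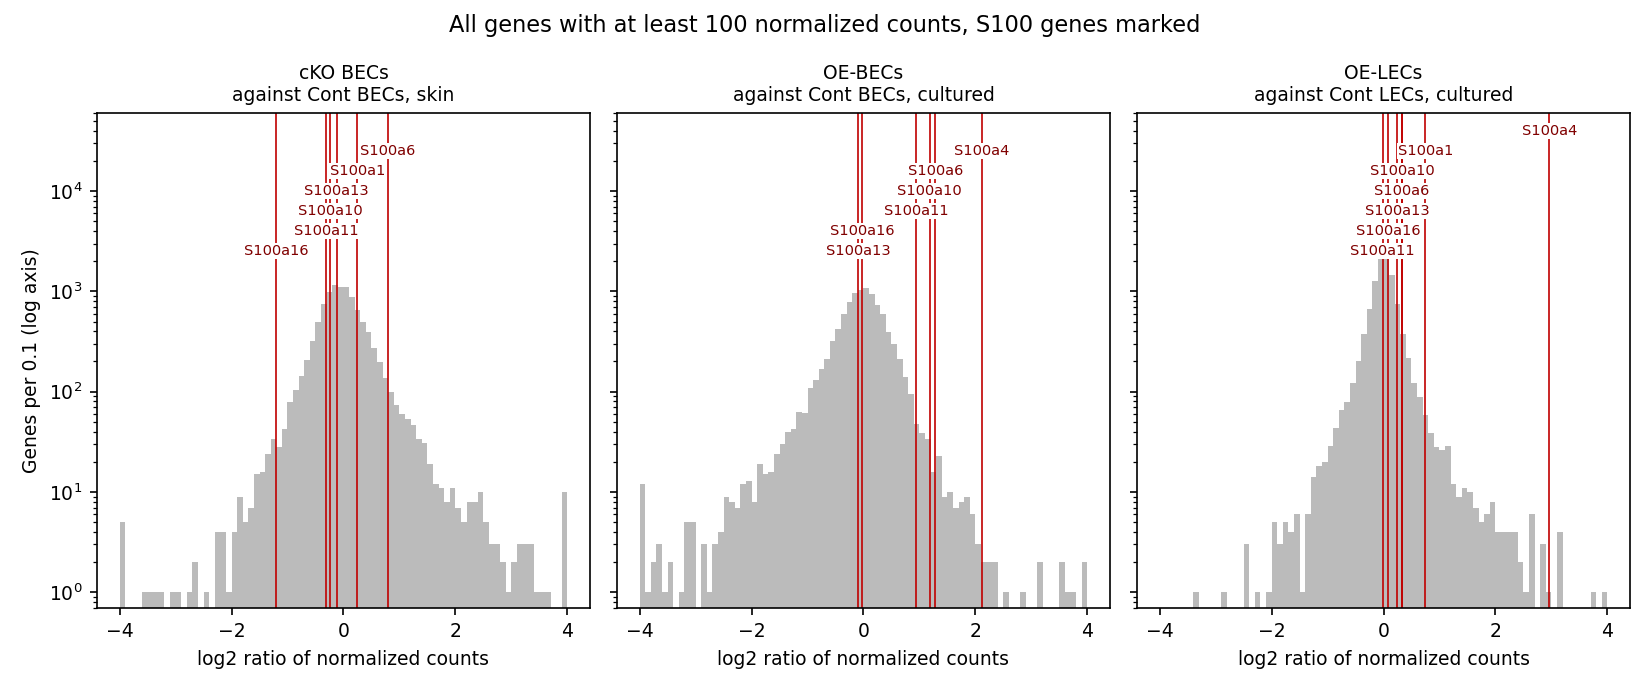
Grey bars count all genes with at least 100 normalized counts (log y axis) by their log2 ratio (x axis, in steps of 0.1, ends pooled), and red lines mark the S100 genes among them. S100a4 lies in the upper tail of both OE comparisons, and S100a6, S100a10 and S100a11 lie right of the bulk in OE-BECs.

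Among the other S100 genes in the table, S100a7a had 10 and 0 reads in the skin pair (at least 4.33-fold lower against the floor in the library labelled cKO, upper end of the interval -1.54), 14 and 44 in the BEC pair (4.10-fold higher in OE-BECs, log2 ratio 2.03, 1.14 to 3.02) and 65 and 127 in the LEC pair (0.74, 0.29 to 1.19). S100b, a glial member, had 57 reads in cultured Cont BECs and 17 in OE-BECs, a 2.57-fold lower normalized count (-1.36, -2.24 to -0.56). S100a14, an epithelial member, had 26 and 66 reads in the skin pair (0.97, 0.29 to 1.68) and at most 8 in culture. S100g had 6 and 1 reads in the skin pair, called down, and 1 and 8 in the BEC pair, called up, with intervals of -8.49 to 0.08 and 0.48 to 8.85. S100a2, looked up after its values were seen, was called up in OE-LECs on 0 and 4 reads. S100a5 had at most 1 read in any library and S100z none. The table held 6 S100-fused genes of skin cornification. Rptn was called up in OE-BECs with 0 and 6 reads. Hrnr was called up in the library labelled cKO with 3 and 52 reads (3.74, 2.11 to 6.06). In that skin pair 8 of 10 keratinocyte markers were higher and 2 lower, with a median log2 ratio of 0.59. Only Krt10 (1.99, 1.55 to 2.45) and Krt1 (2.57, 2.04 to 3.14) were called up among these markers. Krt14 was lower (-0.33, -0.63 to -0.03). The intervals of Krt5 (-0.05 to 0.37), Trp63 (-0.36 to 0.24) and Cdh1 (-0.3 to 0.37) held 0. The part of keratinocyte RNA in the Hrnr value was not tested.

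Among the intracellular partners, Ahnak, the large scaffold bound by S100a10 and annexin A2, had the same direction as S100a10 in each pair. Its log2 ratio was 1.37 (1.35 to 1.39) in OE-BECs, 0.83 (0.81 to 0.86) in OE-LECs and -0.10 (-0.12 to -0.08) in the skin. Anxa2 stood at 0.72 (0.66 to 0.77), 0.41 (0.38 to 0.43) and 0.19 (0.12 to 0.25), so it was on the other side of 0 from S100a10 in the skin. Anxa1, the partner of S100a11, was higher in both OE libraries, at 0.73 (0.65 to 0.82) in OE-BECs and 0.71 (0.66 to 0.76) in OE-LECs, although S100a11 itself was not in OE-LECs. The partners of S100a6 moved less than it did, with Anxa11 at -0.29, 0.18 and 0.05 and Cacybp at 0.09, 0.42 and 0.03 in the skin, OE-BECs and OE-LECs. Myh9, the myosin heavy chain bound by S100a4, had ratios of 0.21, 0.02 and -0.14 where S100a4 had 0.54, 2.11 and 2.96.

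**Figure D5:**
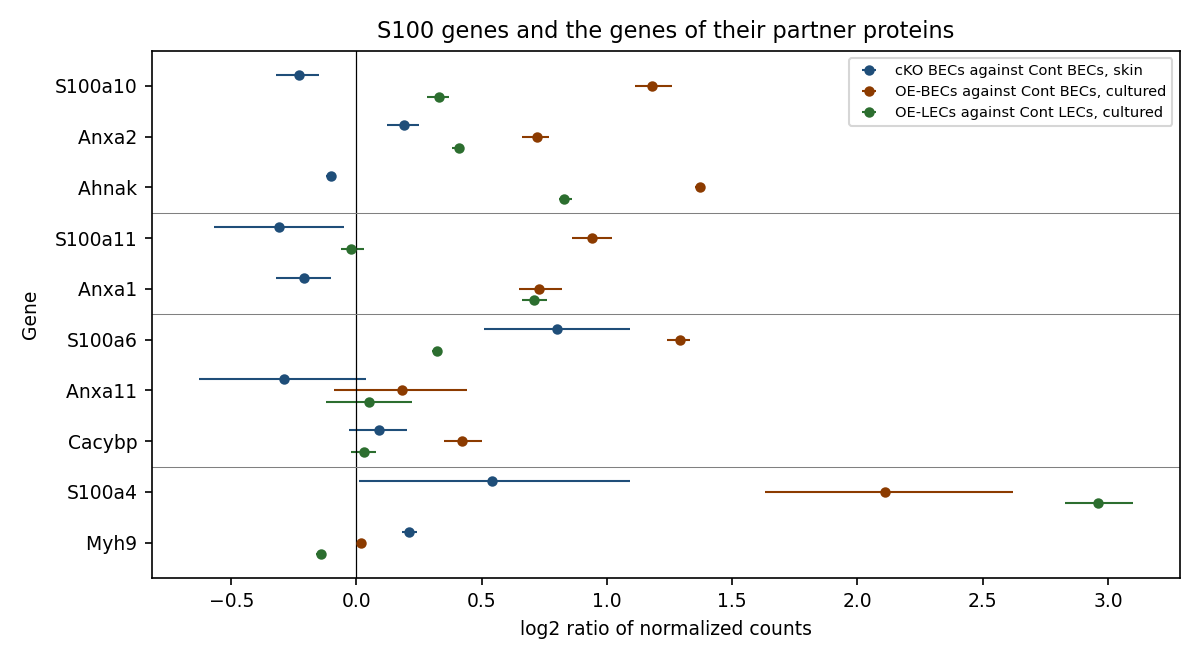
Log2 ratio of normalized counts (x axis) for S100a10, S100a11, S100a6 and S100a4, each followed by the genes of its partner proteins (y axis), in the 3 comparisons with exact 95% counting intervals. In OE-BECs S100a10, Anxa2 and Ahnak all lie right of 0, whereas Myh9 lies at 0.02, far left of S100a4 at 2.11.

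Of the 13 listed partners, the study's rule called none in the skin or in OE-LECs. Of all tested genes it called 5.17% up and 2.41% down in the skin, and 2.77% and 2.09% in OE-LECs. The shares in OE-BECs were 8.02% up and 5.27% down, and nothing is read from the number of calls beside them. In OE-BECs the rule called Fgf1, the growth factor released with S100A13, down (72 and 18 reads, -1.62, -2.45 to -0.86), together with Syt1 (10 and 0 reads), and called Ryr2 up (0 and 6 reads). Among 6 receptors and adaptors, Ager, the receptor RAGE, was called down in OE-BECs with 102 and 24 reads (-1.70, -2.41 to -1.05) and was not called in OE-LECs (-0.49, -0.99 to -0.00) or the skin (0.13, -0.46 to 0.72). Tlr4 was 1.76-fold higher in the library labelled cKO (0.81, 0.65 to 0.98), in the pair where 9 of 10 macrophage markers were also higher, and near 0 in OE-BECs (-0.01) and OE-LECs (0.09). Cd36 was called down in OE-BECs (8 and 2 reads, -4.89 to 0.71) and up in OE-LECs (1 and 5 reads, -1.07 to 7.65). Both of these intervals held 0. In the library labelled cKO Cd36 was 1.89-fold lower (9758 and 6706 reads).

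In the plasminogen system, which S100A10 serves at the cell surface, the urokinase receptor Plaur was higher in both OE libraries. Its log2 ratio was 1.08 (0.96 to 1.19) in OE-BECs and 0.43 (0.37 to 0.48) in OE-LECs. Urokinase, Plau, was lower in OE-BECs (-0.16) and OE-LECs (-0.35) and 2.63-fold higher in the library labelled cKO. In that skin pair 9 of 10 macrophage and 8 of 10 keratinocyte markers were also higher, and 11 of 12 blood endothelium markers were lower. The part of these cell types in the Plau value was not tested. The 18 other EF-hand genes that were listed gave no call in any comparison, where 5.17% and 2.41% (skin), 8.02% and 5.27% (OE-BECs) and 2.77% and 2.09% (OE-LECs) of all tested genes were called up and down, with median log2 ratios of -0.05, 0.06 and 0.10 in the skin, OE-BECs and OE-LECs.

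For each member the 3 genes with the closest pattern over the 6 libraries were taken from 11153 genes with at least 10 CPM in 1 library, by root mean square distance between centred log2 CPM profiles. The closest to S100a4 was Oasl1, an interferon-induced gene, at a distance of 0.192, with 1.35, 2.80, 0.622, 2.51, 5.51 and 49.7 CPM in the order of libraries used above. Cryab (0.769) and Nipal1 (0.779) came next, at about the same distance from S100a4. For S100a6 they were Lhx8 (0.214), Steap2 (0.228) and Steap1 (0.301), and for S100a11 they were Dyrk3 (0.184), Eif6 (0.21) and Prkacb (0.237). For S100a10 they were Prim1 (0.139), Mb21d1 (0.166) and Sertad2 (0.167). For S100a13 they were Relb (0.041), Kif1bp (0.062) and Rptor (0.062). S100a16 was followed by Trappc2 (0.127), Coq10b (0.143) and Gemin2 (0.151), and S100a1 by 4930579G18Rik (0.179), St6galnac6 (0.204) and Slc35d2 (0.207). The members near the floor had Itpkc (0.033), Rad23b (0.051) and Rab21 (0.052) for S100a3, Pcdh12 (0.192), Prrg1 (0.204) and Snn (0.213) for S100a8, and Kif24 (0.123), Slfn9 (0.136) and B630005N14Rik (0.152) for S100a9. The profiles were centred, so these distances describe likeness of relative pattern over the libraries and not of level. S100a3, S100a8 and S100a9 had at most 1.24 CPM, under the 10 CPM asked of the candidates. At such levels the constant added to CPM before the logarithm flattens a profile, so the distances of these 3 members say little about pattern. The constant also weighs on matched genes that were low in some libraries. In skin Cont and cKO, Lhx8 had 0 and 2 reads, Steap1 had 1 and 7, and Dyrk3 had 8 and 9. Nipal1 had 3 reads in skin Cont, and Oasl1 had 0.622 CPM in cultured Cont BECs. The distances of these genes to S100a6, S100a11 and S100a4 thus depend in part on the constant. The 6 libraries come in 3 pairs, each of 1 cell source, so the distances are a description only.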

How the data were processed

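RNA-seq was read from 6 libraries, 1 per group. The authors trimmed adapters with skewer, aligned reads to mm10 with STAR and counted them per gene with VERSE. They deposited raw counts of reads for 24421 genes, and the gene annotation behind them is not given in the sources used here. Each group had 1 library, so all intervals cover counting error only. The reads carry no molecular identifiers, so repeated reads of 1 molecule are counted apart and the intervals may be too narrow even for that error. Counts were normalized on the 2 libraries of each comparison with the median of ratios of DESeq2 1.42.0 (R 4.3.3), and each ratio was given a 95% interval by the exact Clopper-Pearson method on its reads. CPM is reads per 1000000 reads of the library. A library with 3 reads or fewer was at its floor, so a library at 0 gives a bound and a pair at or under the floor gives no fold. Total counts, listed in the report, set the precision. Positions and merged exon lengths came from GENCODE M21 (GRCm38, the same build), which held 95.7% of the genes. The members and lists were chosen with earlier results of these data known. Named genes were the members, the other S100 genes, listed partner and pathway genes that were called or are needed beside a member, and the 3 closest patterns (centred log2 of CPM plus 0.5). The listed genes S100a7l2, Flg and Ly6g were not analysed here, and 1 listed gene is not reported here. Alternatives were size factors from all 6 libraries, TMM factors (edgeR 4.0.16), total counts with and without Rn45s and Malat1, other minima and folds of the rule, and a pseudocount of 1. The steps were tested on simulated data. Python 3.11.15 with numpy 2.4.6, scipy 1.17.1, pandas 2.3.3 and matplotlib 3.10.9 did the rest.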

Additional observations from a re-analysis of the deposited data

Results flagged for a closer look

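S100a1 had a log2 ratio of -0.77 (95% counting interval -1.38 to -0.18) in OE-BECs and of 0.75 (0.44 to 1.06) in OE-LECs. It was singled out because the OE library lay below its Cont library in one cell type and above it in the other. With 1 library per group the difference between the cell types was not tested. The rest of the members had no such pair of opposite ratios in the OE comparisons with both intervals leaving out 0.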

How the results depend on the processing

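With 1 library per group, no spread between replicates is known. Every one of the 125 log2 ratios recomputed for members, under the other scalings and with a pseudocount of 1, stayed within its counting interval. A minimum of 20 normalized counts lowered the members called down to 0 in the skin, OE-BECs and OE-LECs (1.12%, 2.18% and 0.43% of all genes) and those called up in OE-BECs to 1 (1.85%). A fold of more than 2 gave 2 called down in the skin (5.23% of all genes) and 4 called up in OE-BECs (11.4%). The rule of more than 2-fold with a minimum of 20, chosen after seeing the data, gave 0 called down in OE-BECs and OE-LECs. The median in OE-BECs was 0.94 over members with at least 20 normalized counts, against 0.46, and that in the skin -0.12, against -0.23, since fewer genes enter them. The order of libraries by level was the same for 10 of 10 members with size factors from all 6 libraries and for 9 of 10 without Rn45s and Malat1, where OE-BECs and cultured Cont BECs exchanged places for S100a16. Depth limits S100a3, S100a8 and S100a9, with at most 16 reads in any library. No paired analysis was possible because each group has 1 library and the labels give no replicate numbers.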
